A study of Rattus norvegicus with 3 samples.

Results

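Fatty acid synthesis in the cytosol was followed in rat muscle through 10 genes: the enzymes Acly, Acaca, Acacb, Fasn, Scd, Elovl6, Elovl5 and Fads1, and the transcription factor genes Srebf1 and Mlxipl. The genes were chosen by name, and each was read from the probe set that the platform annotation gives to its symbol. Of the 10 genes, 9 had a probe set of their own, 1 each, among 14506 genes measured in all. The only probe set listed for Srebf1 is also listed for Pemt, so Srebf1 is not reported as a gene. All 9 lay above the dim level (a mean log2 level of 5.34, the 25th percentile of all genes), which left 10879 genes for comparison.

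RNA came from the tibialis anterior muscle of male Wistar rats, 11 weeks old, 8 days after plasmid DNA (150 µg) was electroporated into the muscle. All rats ate a high fat diet (45% of energy from fat) for 3 weeks, and the plasmid was given after 2 weeks of it. The plasmid was pcDNA3.1-CMV-Plin5 (the Plin5 array), pENTR-CMV-Plin2 (the Plin2 array) or pcDNA3.1 with no insert (the empty vector array). Plin2 and Plin5 encode perilipins, proteins that coat lipid droplets. The Plin2 plasmid had a backbone different from the other plasmids, so insert and backbone cannot be told apart on that array. The CMV promoter is a strong viral promoter that is not restricted to muscle fibres. Each group was 1 array of RNA pooled from 6 rats. There was therefore no replicate, no test and no spread between animals, and single arrays set the precision of all values given.

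Cytosolic fatty acid synthesis starts from citrate. Acly splits citrate to acetyl-CoA, acetyl-CoA carboxylase turns it into malonyl-CoA, and Fasn builds palmitate from malonyl-CoA. Elovl6 lengthens palmitate, Scd introduces the double bond that makes oleate and palmitoleate, and Elovl5 and Fads1 work on polyunsaturated chains. Acetyl-CoA carboxylase has a cytosolic form, Acaca, which feeds synthesis, and a form at the outer mitochondrial membrane, Acacb, which is the main form in muscle and whose malonyl-CoA restrains fatty acid entry into mitochondria. SREBP-1c (from Srebf1), activated by insulin and by oxysterol-sensing liver X receptors, and ChREBP (from Mlxipl), activated by glucose metabolites, drive transcription of the enzymes in liver and fat.

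The fibres, the vector and the arrays were checked first. All 12 fast fibre markers and all 8 slow fibre markers were above the dim level, whereas 4 of 5 hepatocyte markers were below it. The Plin5 probe set stood at a log2 level of 7.52 on the empty vector array, 6.79 on the Plin2 array and 8.30 on the Plin5 array. The Plin2 probe set stood at 9.99, 10.71 and 10.08 in the same order. Each introduced gene was thus highest on its own array. Against the empty vector, Plin5 was 1.72-fold higher on the Plin5 array, a rise reached by 0.129% of all genes. Plin2 was 1.64-fold higher on the Plin2 array, reached by 6.34% of all genes. A rise of the Plin2 size was therefore common on that array and is weak evidence of expression from the plasmid. Of the 10879 genes, 2673 (24.6%) had exactly equal deposited values on all 3 arrays, so an exact 0 below is a property shared with many genes.

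Of the 9 genes, 4 differed by at least 1.5-fold between the Plin2 and empty vector arrays, as did 14.6% of all genes: Mlxipl and Acacb downward, and Acly and Scd upward. The 250 bases before their annotated start sites are shown because these 4 genes separate the lower from the higher group. They are from RefSeq (build GRCr8), written 5′ to 3′ along each gene's strand, in lower case. In capitals are E-boxes (CANNTG, the core of ChREBP sites and 1 form of site that SREBP-1 can bind) and CCAAT boxes (the core bound by NF-Y, read on both strands). The windows are chr12:27213657-27213906 on the minus strand for Mlxipl, chr12:48138215-48138464 on the minus strand for Acacb, chr10:85963632-85963881 on the minus strand for Acly and chr1:253231732-253231981 on the minus strand for Scd.
Mlxipl: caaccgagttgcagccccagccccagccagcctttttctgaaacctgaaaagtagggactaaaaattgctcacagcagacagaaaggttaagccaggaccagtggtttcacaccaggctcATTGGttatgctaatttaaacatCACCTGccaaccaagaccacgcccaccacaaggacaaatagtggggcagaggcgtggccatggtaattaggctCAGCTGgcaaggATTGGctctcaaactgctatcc
Acacb: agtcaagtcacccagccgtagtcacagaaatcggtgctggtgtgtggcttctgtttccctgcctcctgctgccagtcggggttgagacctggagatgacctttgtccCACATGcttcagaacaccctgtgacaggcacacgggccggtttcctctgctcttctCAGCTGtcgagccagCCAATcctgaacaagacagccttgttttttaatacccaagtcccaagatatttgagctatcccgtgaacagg
Acly: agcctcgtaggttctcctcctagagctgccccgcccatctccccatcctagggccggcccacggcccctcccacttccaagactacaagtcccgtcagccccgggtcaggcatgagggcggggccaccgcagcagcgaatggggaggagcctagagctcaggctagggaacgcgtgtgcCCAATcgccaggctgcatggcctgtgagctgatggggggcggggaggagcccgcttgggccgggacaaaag
Scd: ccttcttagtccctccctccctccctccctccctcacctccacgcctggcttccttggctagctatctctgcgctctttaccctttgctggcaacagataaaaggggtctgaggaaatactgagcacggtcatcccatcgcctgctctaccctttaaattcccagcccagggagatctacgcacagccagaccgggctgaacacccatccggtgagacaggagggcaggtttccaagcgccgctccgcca

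The Mlxipl window held 2 E-boxes, at -107 to -102 and -34 to -29 from the start site, and 2 CCAAT boxes. The Acacb window held 2 E-boxes, at -143 to -138 and -87 to -82, and 1 CCAAT box at -72 to -68. The Acly window held 1 CCAAT box at -71 to -67 and no E-box, and the Scd window held neither. In these windows both genes that were lower on the Plin2 array carried E-boxes and both that were higher did not, over 4 genes only. Among the genes short of 1.5-fold, Elovl5, which was also higher, carried 1 E-box (CACGTG, at -212 to -207) and Fads1 none, so the split was not shared by all members. E-boxes occurred in 65.5% and CCAAT boxes in 34.0% of the 33469 windows in the table, so neither is rare. GC boxes of the Sp1 type (GGGCGG, both strands) occurred in 30.5% of windows and were found 3 times in the Acly window. The paired E-box of ChREBP sites (2 copies of CANNTG with 5 bases between them) and the liver X receptor repeat (2 copies of AGGTCA with 4 bases between them) were searched on both strands and matched none of the 4 windows. As spelled here, with no mismatch allowed, they occurred in 0.636% and 0.00299% of all windows, so their absence from 4 windows is uninformative. The CACGTG form of the E-box, found in 5.59% of all windows, a subset of the E-boxes above, was in none of the 4. Of the members, 7 of 10 had a window in the table. Sterol regulatory elements, the other form of SREBP-1 site, were not searched, so a window without an E-box may still hold an SREBP-1 site. A match or its absence describes these letters and says nothing of binding.

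The Plin2 plasmid differed from the empty vector in insert and in backbone, so the comparison of these arrays cannot be assigned to the droplet protein. The lipogenic genes did not move as 1 block. The transcription factor gene Mlxipl and the mitochondrial-form carboxylase gene Acacb were lower, 6 enzyme genes were higher, and Acaca had the same value. Past 1.5-fold, 2 of 9 were higher and 2 lower, where 8.84% of all genes were higher and 5.8% lower. The median difference over the 9 genes was 0.42 on the log2 scale, against 0.00 over all genes. By the mean it was 0.07, lowered by Mlxipl and Acacb, each of which differed downward by more than any single gene did upward.

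**Figure D1:**
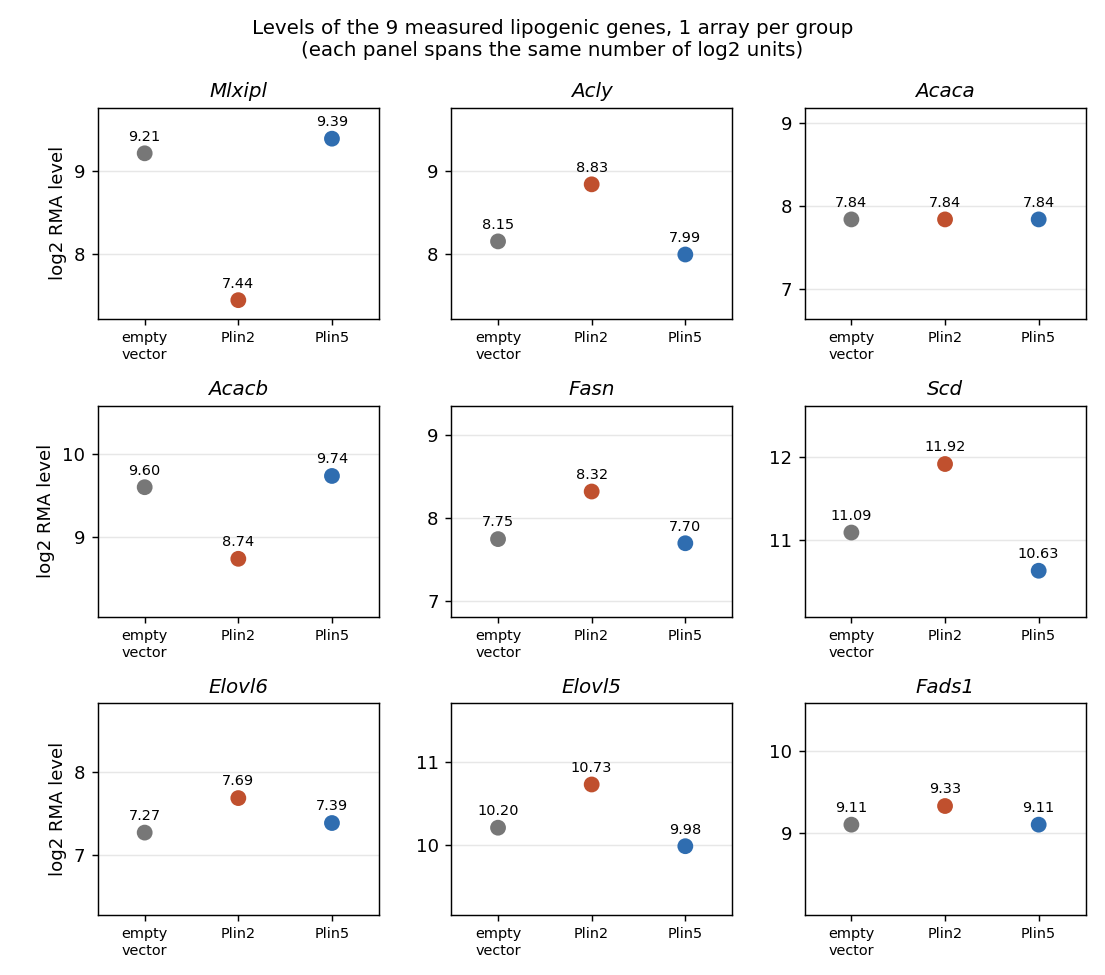
Deposited log2 RMA levels (vertical axis, log2 units) of the 9 measured lipogenic genes on the empty vector, Plin2 and Plin5 arrays (horizontal axis), 1 point per array of pooled RNA, with no error bar because each group has 1 array. Levels are comparable within a panel and not between panels. On the Plin2 array Mlxipl (7.44) and Acacb (8.74) had their lowest point, and 6 enzymes, such as Scd (11.92), had their highest.

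Mlxipl (probe set 10940564), which encodes ChREBP, had a log2 level of 9.21 on the empty vector array, 7.44 on the Plin2 array and 9.39 on the Plin5 array. The Plin2 array stood alone at the bottom, and the other arrays lay close together. The Plin2 minus empty vector difference was -1.77 on the log2 scale (3.42-fold lower). Only 9 of 10879 genes, Mlxipl included, had a difference this low. The probe set does not separate transcripts from the gene's alternative promoters.

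Acacb (10762792) stood at a log2 level of 9.60 on the empty vector array, 8.74 on the Plin2 array and 9.74 on the Plin5 array. The order of the arrays was that of Mlxipl, with a smaller gap. The log2 difference between Plin2 and empty vector was -0.86 (1.82-fold lower), and 2.1% of all genes were at least as low. Its cytosolic counterpart Acaca (10736957) had a log2 level of 7.84 on every array, equal to the last deposited digit. On the Plin2 array the mitochondrial form was thus lower and the cytosolic form at an identical value. Exact ties between the Plin2 and empty vector arrays were shared by 30% of all genes, so the tie does not show that Acaca was unchanged.

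Scd (10730349), the stearoyl-CoA desaturase, had the largest upward difference of the group. Its log2 level was 11.09 on the empty vector array, 11.92 on the Plin2 array and 10.63 on the Plin5 array, so the empty vector lay between the others. The Plin2 minus empty vector difference was 0.83 (1.77-fold higher), reached by 4.54% of all genes. Scd is closely similar to Scd2 in sequence, and how far their probes cross-hybridise was not tested.

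Acly (10747371), which makes cytosolic acetyl-CoA, stood at a log2 level of 8.15 on the empty vector array, 8.83 on the Plin2 array and 7.99 on the Plin5 array. The Plin2 minus empty vector difference was 0.69 (1.61-fold higher). Fasn (10940681), the synthase itself, stood at 7.75, 8.32 and 7.70 in that order of arrays. Its difference of 0.57 (1.49-fold) fell just short of the 1.5-fold threshold. Both enzymes thus had their highest level with the Plin2 plasmid and closer levels on the other arrays.

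The chain-modifying enzymes were higher on the Plin2 array by smaller amounts. Elovl5 (10911765), an elongase of polyunsaturated chains, had log2 levels of 10.20 (empty vector), 10.73 (Plin2) and 9.98 (Plin5), a difference of 0.52 (1.44-fold higher on Plin2). Elovl6 (10819005), the elongase of palmitate, had levels of 7.27, 7.69 and 7.39 in the same order, a difference of 0.42 (1.33-fold). Fads1 (10713857), the delta-5 desaturase, had levels of 9.11, 9.33 and 9.11, a difference of 0.22 (1.17-fold). Differences at least as high as that of Fads1 were seen in 21.3% of all genes and as that of Elovl6 in 13.2%, so differences of these sizes were common on this array.

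**Figure D2:**
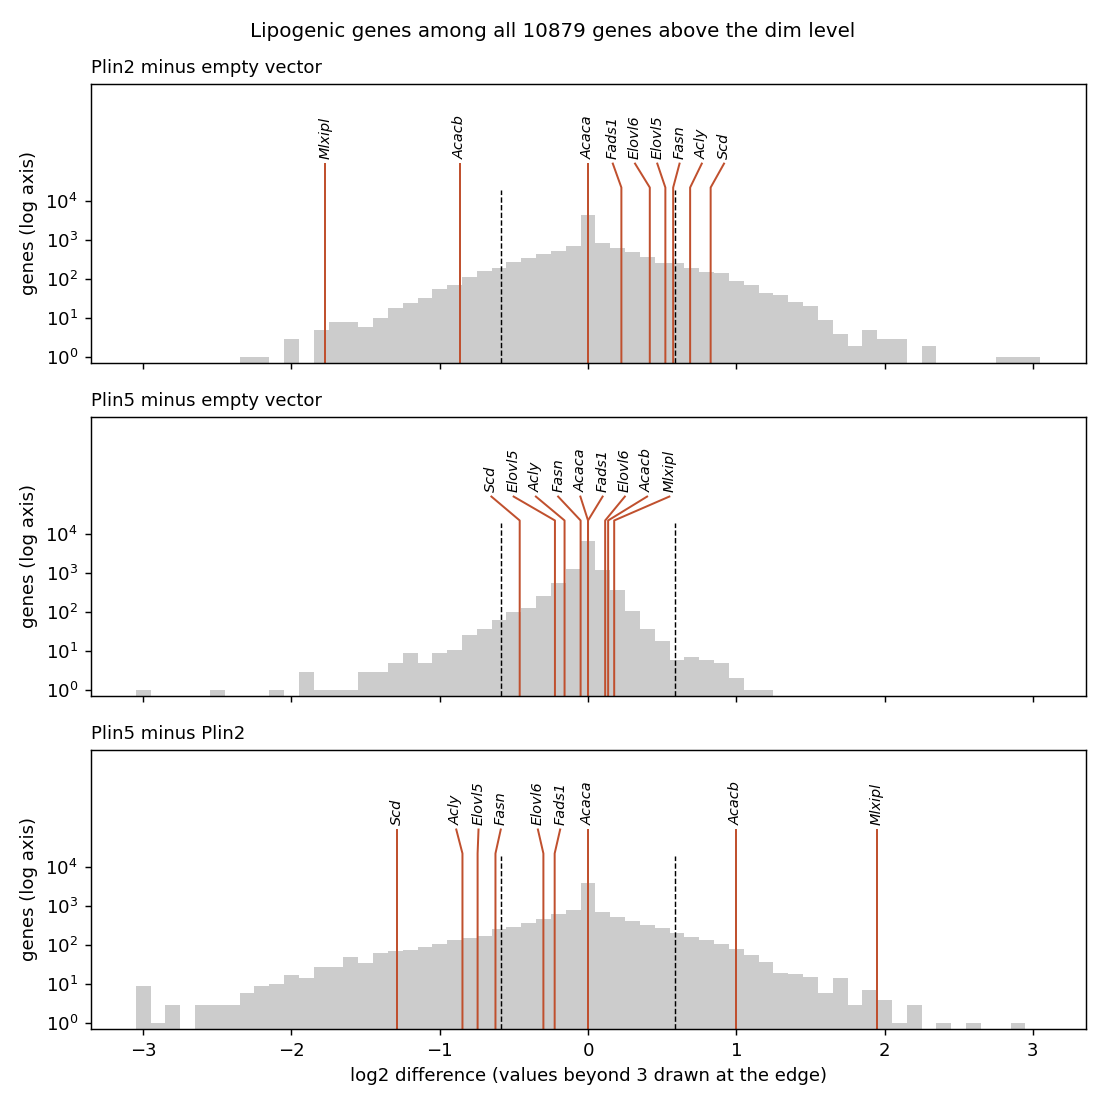
Number of genes (vertical axis, log scale) by log2 difference (horizontal axis) in the 3 comparisons, over the 10879 genes above the dim level. Vertical lines mark the 9 lipogenic genes and dashed lines the 1.5-fold threshold. Mlxipl lies in the lower tail for Plin2 minus empty vector (-1.77), whereas in Plin5 minus empty vector the lipogenic genes lie between -0.46 (Scd) and 0.18 (Mlxipl).

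The comparison of the Plin5 with the empty vector array set the Plin5 plasmid against the plasmid with no insert. The lipogenic genes differed little. Past 1.5-fold, 0 of 9 were higher and 0 lower, where 1.64% of all genes passed in either direction, 0.221% higher and 1.42% lower, so a count of 0 of 9 is near the background. The median log2 difference over the 9 genes was 0.00, the same as over all genes. Acaca and Fads1 had equal values on both arrays, as did 40.2% of all genes.

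Scd was the only lipogenic gene to differ by 1.2-fold or more between Plin5 and empty vector, with a log2 difference of -0.46 (1.38-fold lower); 2.45% of all genes were at least as low. Elovl5 followed at -0.22 (1.17-fold lower), then Acly at -0.16 and Fasn at -0.05. Above the empty vector stood Mlxipl at 0.18 (1.13-fold higher), Acacb at 0.14 and Elovl6 at 0.12. Sizes this small occurred in many genes, with 3.84% of all genes at least as high as Mlxipl and 22.6% at least as low as Fasn.

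On the 3 arrays, Scd, Elovl5, Acly and Fasn ranked Plin2 above empty vector above Plin5, and Mlxipl and Acacb ranked the other way. The first order was shown by 23.4% of all genes and the second by 17.1%. Both comparisons use the same empty vector array, so its own deviation enters each with the same sign. Elovl6 was highest on Plin2 and lowest on the empty vector, and Fads1 was highest on Plin2 and equal elsewhere.

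The direct comparison of the Plin5 with the Plin2 array set plasmids that differed in insert and in backbone against each other. Here 2 of 9 lipogenic genes were higher and 4 lower past 1.5-fold, where 18.4% of all genes passed in either direction, 7.19% higher and 11.3% lower (9.3% and 9.49% after each array was centred on its median). Mlxipl was higher on the Plin5 array by 1.95 on the log2 scale (3.86-fold), a size reached by 12 genes in all. Acacb was higher by 0.9997 (1.9995-fold), just short of 2-fold. Scd was lower by a log2 difference of -1.29 (2.44-fold), Acly of -0.85 (1.80-fold), Elovl5 of -0.74 (1.68-fold) and Fasn of -0.62 (1.54-fold). Fasn no longer passed 1.5-fold after centring (-0.53) or quantile normalization (-0.51). Elovl6 stood at -0.30 and Fads1 at -0.22, and Acaca was equal. In each of these genes but Acaca the distance to the empty vector was larger for Plin2 than for Plin5. The gap was most shared in Scd, with 0.83 for Plin2 and -0.46 for Plin5.

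Of 10 listed genes of SREBP-1 processing, the steps that activate the factor, 7 were measured. In all 3 comparisons 0 of 7 passed 1.5-fold, which is near the shares of all genes that did (14.6%, 1.64% and 18.4% in either direction) and says nothing particular about the list. In Plin2 minus empty vector their median difference was 0.00. The lowest was Insig1, which retains SREBPs in the endoplasmic reticulum and is itself an SREBP target, at -0.28. The escort protein gene Scap stood at 0.02, and Srebf2, which encodes the cholesterol-regulating relative of SREBP-1, at 0.00.

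Mlx, which encodes the obligate partner of ChREBP, had a log2 level of 8.71 on every array, an exact equality shared by 24.6% of all genes. In the list of ChREBP partners and liver X receptors, 1 of 6 genes above the dim level was lower and 0 higher in Plin2 minus empty vector, near the 5.8% and 8.84% of all genes. The lower one was the thyroid hormone receptor gene Thrb (-0.70). The liver X receptor gene Nr1h3 stood at 0.40 and Nr1h2 at 0.09. None passed 1.5-fold in Plin5 minus empty vector, and only Thrb (0.82) did in Plin5 minus Plin2. Of all genes, 1.64% and 18.4% passed in either direction in these comparisons, so both counts are near the background.

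Genes listed as ChREBP targets from other tissues were read beside Mlxipl. Of 7 above the dim level, 1 was lower and 1 higher past 1.5-fold in Plin2 minus empty vector, near the 14.6% of all genes that passed in either direction. Gpd1, the cytosolic glycerol-3-phosphate dehydrogenase, was the lower one (-0.83) and Tmem37 the higher (1.15), and the median was 0.06. Txnip, a glucose-responsive ChREBP target, stood at -0.17, and its relative Arrdc4 at 0.14. The liver pyruvate kinase gene Pklr was below the dim level. In Plin5 minus empty vector, 0 of the 7 passed 1.5-fold, near the 1.64% of all genes that did in either direction.

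Of 10 genes above the dim level that accompany SREBP-1 and the liver X receptors, 2 were higher and 2 lower in Plin2 minus empty vector, where 8.84% of all genes were higher and 5.8% lower. The cholesterol exporters Abca1 (0.92) and Abcg1 (0.89), both liver X receptor targets, were higher. The glycerolipid genes Lpin1, a phosphatidate phosphatase, (-1.22) and Gpam, the mitochondrial glycerol-3-phosphate acyltransferase, (-0.75) were lower. In Plin5 minus empty vector Abcg1 (-1.10) and Abca1 (-0.78) were lower and 0 of the 10 were higher, where 1.42% of all genes were lower and 0.221% higher. In Plin5 minus Plin2 the values were -1.99 for Abcg1, -1.70 for Abca1, 1.37 for Lpin1 and 1.06 for Gpam. Thrsp and Mid1ip1, which encode Spot 14 and its relative, had equal values on all 3 arrays.

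Of 10 measured genes that supply acetyl-CoA and NADPH, 2 were lower and 2 higher past 1.5-fold in Plin2 minus empty vector, where 5.8% of all genes were lower and 8.84% higher, and 3 were equal. Me1, the cytosolic malic enzyme that yields NADPH, (-0.98) and Acss2, which makes acetyl-CoA from acetate, (-0.82) were lower. The transketolase gene Tkt (0.81) and the mitochondrial malic enzyme gene Me2 (0.76) were higher. The median was 0.00. None of the 10 passed 1.5-fold in Plin5 minus empty vector, near the 1.64% of all genes that did in either direction. The same 4 genes passed in Plin5 minus Plin2, where 7.19% of all genes were higher and 11.3% lower. Me1 stood at 1.05, Acss2 at 1.01, Me2 at -0.83 and Tkt at -0.72.

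Of 10 measured genes that use or control malonyl-CoA, 5 were lower and 0 higher past 1.5-fold in Plin2 minus empty vector, where 5.8% of all genes were lower and 8.84% higher, with a median of -0.32 against 0.00 over all genes. The 5 were the malonyl-CoA decarboxylase gene Mlycd (-0.77), the AMP-activated kinase subunit genes Prkaa2 (-0.76), Prkag3 (-0.62) and Prkab2 (-0.59), and Cpt1b (-0.65), the muscle carnitine palmitoyltransferase that malonyl-CoA inhibits. Of the others, 3 were above 0, with Cpt1a, the liver form, at 0.57, and 1 was equal. In Plin5 minus empty vector 0 of 10 passed, near the 1.64% of all genes that did in either direction. In Plin5 minus Plin2, 7.19% of all genes were higher and 11.3% lower. Here 4 of the list were higher, Mlycd at 0.85, Prkaa2 at 0.84, Cpt1b at 0.73 and Prkab2 at 0.59, and Cpt1a was lower at -0.74. The list was chosen with earlier results of these data known and does not hold every kinase subunit gene, so its counts are not independent support. All 12 fast fibre markers were also lower in Plin2 minus empty vector, and the part of the fibres in these values was not tested.

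Other genes of chain elongation and desaturation were read from 7 genes above the dim level. In Plin2 minus empty vector 1 was higher, the hydroxyacyl-CoA dehydratase gene Hacd4 (0.62), where 8.84% of all genes were. Hacd4 was also the 1 gene lower in Plin5 minus empty vector (-0.59), where 1.42% of all genes were. In Plin5 minus Plin2, 3 were lower, where 11.3% of all genes were: Hacd4 (-1.21), the desaturase gene Scd2 (-0.92) and Fads3 (-0.59). Scd2 stood at log2 levels of 10.38, 10.93 and 10.01 on the empty vector, Plin2 and Plin5 arrays, the same order as Scd. Fads2, the delta-6 desaturase that works beside Fads1, stood at -0.22 in Plin2 minus empty vector, the opposite sign to Fads1.

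**Figure D3:**
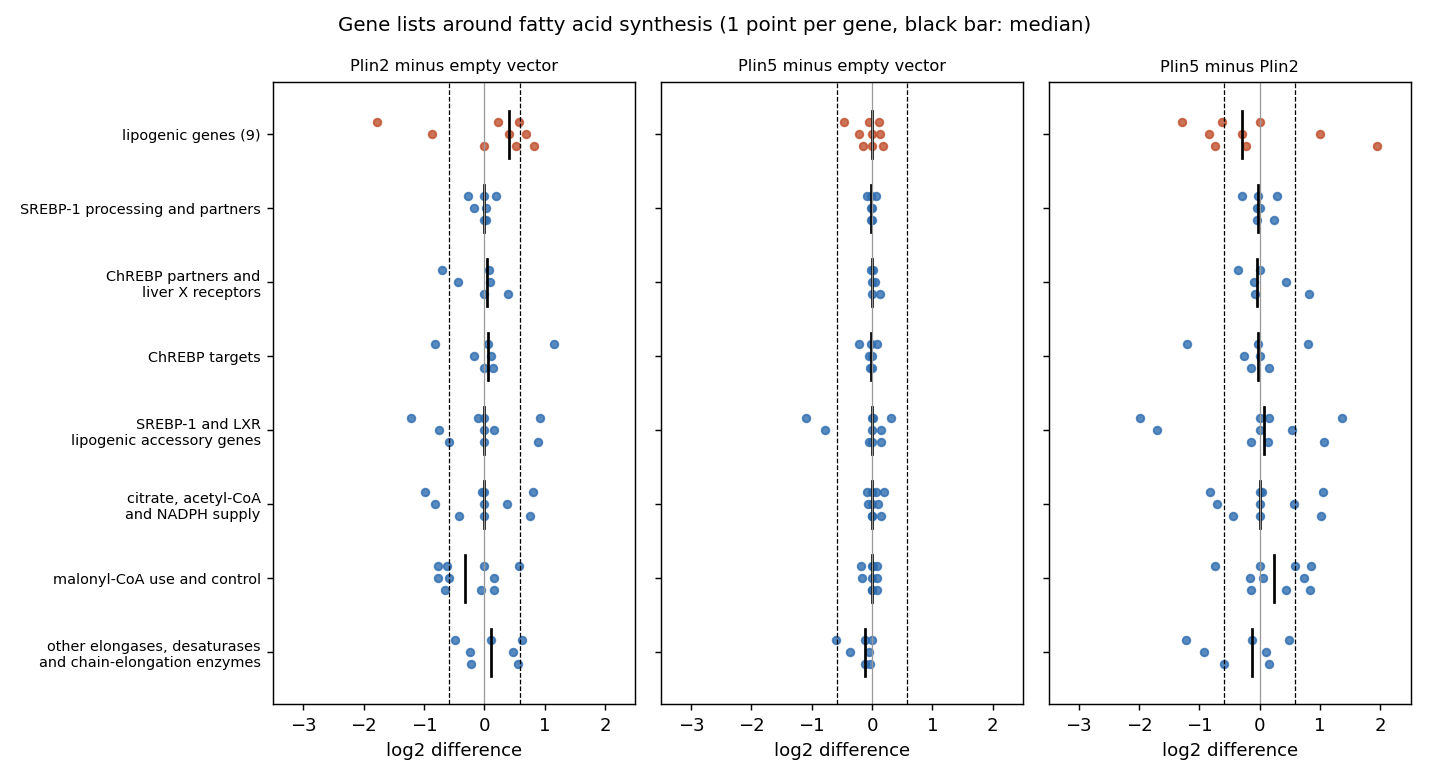
Log2 differences (horizontal axis) of the 9 lipogenic genes and of 7 surrounding gene lists (rows) in the 3 comparisons, 1 point per gene above the dim level. Black bars are list medians and dashed lines the 1.5-fold threshold. In Plin2 minus empty vector the malonyl-CoA list has its median at -0.32 and the SREBP-1 processing list at 0.00.

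Markers of other cells were measured beside these genes, because in bulk muscle fewer cells of a type and less RNA per cell cannot be told apart. All 14 macrophage markers were higher on the Plin2 than on the empty vector array, with a median difference of 1.09. At least 1.5-fold higher were 13 of them, where 8.84% of all genes were. The summed level of the 14 markers, as a log2 value, was 13.88 on the empty vector, 14.99 on the Plin2 and 13.54 on the Plin5 array. This order was also shown by Scd, Elovl5, Acly, Fasn, Abca1 and Abcg1. In Plin5 minus empty vector, 12 of the 14 markers were lower, with a median of -0.53. At least 1.5-fold lower were 6 of them, including Trem2 (-1.33), where 1.42% of all genes were. None of these markers was below the dim level. Their part in the higher enzyme values was not tested.

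Slow fibre markers moved with Mlxipl and Acacb: 6 of 8 were lower and 0 higher by at least 1.5-fold in Plin2 minus empty vector. Of all genes, 5.8% were lower and 8.84% higher by that much. The median of the slow fibre markers was -0.80, and their summed log2 level was 14.12, 13.37 and 14.38 on the empty vector, Plin2 and Plin5 arrays. All 12 fast fibre markers were lower too, with a median of -0.22 and summed log2 levels of 17.07, 16.83 and 17.09. By at least 1.5-fold, 2 of the 12 were lower, against the same 5.8% of all genes. The difference of Mlxipl (-1.77) was larger than that of every slow and fast marker; the nearest was the slow myosin gene Myh7 (-1.75). The part of the fibres in the Mlxipl value was not tested.

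Adipocytes are a lipogenic cell type that muscle can hold. Of 11 measured adipocyte markers, 5 had equal values on all 3 arrays, among them Adipoq (6.54), Plin1 (5.94), Cidec (5.55) and Lep (5.05). Exact equality was shared by 24.6% of all genes, so it does not show a stable share of adipocytes. In Plin2 minus empty vector 4 markers were below 0, among them Fabp4 (-0.32) and Lipe (-0.24), and 2 were above, Cfd and Trarg1 (0.12). Lep and Pck1 were below the dim level. Of the 9 markers above the dim level, 1 was lower past 1.5-fold in Plin2 minus empty vector and 0 were higher. These counts are near the 5.8% and 8.84% of all genes. The lower one was the glycerol channel gene Aqp7 (-1.65). Cfd, which encodes adipsin, stood at 0.47 in Plin2 minus empty vector and -0.35 in Plin5 minus empty vector, the order of Scd. In Plin5 minus Plin2, Cfd was lower (-0.82) and Aqp7 higher (1.81) past 1.5-fold. Of all genes, 11.3% were lower and 7.19% higher by that much in Plin5 minus Plin2. Summed adipocyte marker levels were 11.23, 10.96 and 11.32 as log2 values on the empty vector, Plin2 and Plin5 arrays. Of 7 measured Schwann cell markers, Pmp2 was below the dim level, and of the other 6, 0 passed 1.5-fold in any comparison. That is near the shares of all genes that passed in either direction (14.6%, 1.64% and 18.4%). The differences of these 6 Schwann cell markers ran from -0.15 to 0.00 in Plin2 minus empty vector.

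**Figure D4:**
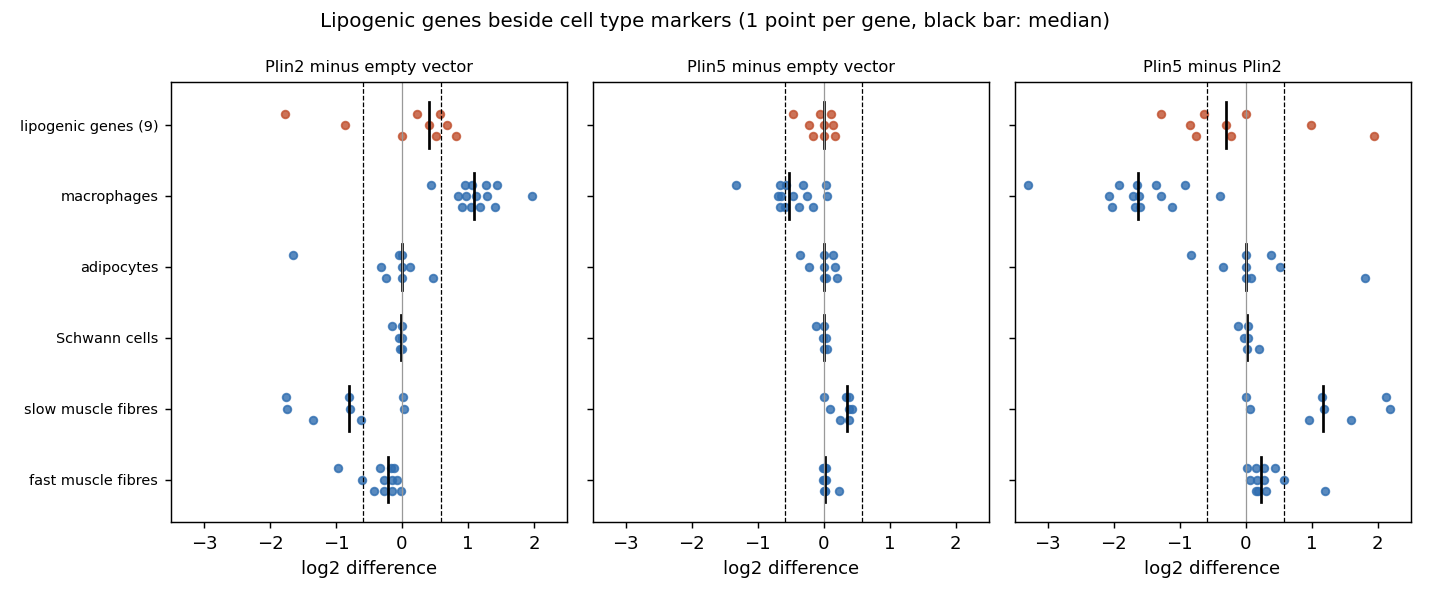
Log2 differences (horizontal axis) of the 9 lipogenic genes and of markers of 5 cell types (rows) in the 3 comparisons, 1 point per gene above the dim level, with medians as black bars and the 1.5-fold threshold dashed. In Plin2 minus empty vector macrophage markers have a median of 1.09 and slow fibre markers of -0.80, and the lipogenic genes span both sides, from -1.77 to 0.83.

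The genes whose values most resembled those of Mlxipl and Scd were found by Euclidean distance in the plane of both log2 differences against the empty vector, over 3 arrays. Nearest to Mlxipl were Asb10 (distance 0.03), St8sia5 (0.04), Scn4b (0.05), Lgi2 (0.06) and Slc38a3 (0.08). Asb10, for example, had log2 levels of 8.69, 6.94 and 8.88 on the empty vector, Plin2 and Plin5 arrays. Nearest to Scd were Abhd12 (0.02), Fndc3c1 (0.02), Baiap2l1 (0.03), Tmem176b (0.03) and the interleukin-17 receptor gene Il17ra (0.03). Abhd12, a lysophosphatidylserine lipase gene, had levels of 9.79, 10.63 and 9.32. A likeness over 3 arrays rests on 2 differences that share the empty vector array.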

How the data were processed

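The authors deposited log2 expression values made with RMA (background correction, quantile normalization and median polish over the probes of a set), per the submitters' processing notes, with no version; log2 was taken from the range and from RMA's output. The authors' chip description and annotation: not given in the sources used here. RNA was pooled from 6 rats per group, per the labels' protocols, and sham-electroporated contralateral muscle was not analysed here.

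Of 29214 probe sets, 15310 had 1 gene symbol, 323 several and 13581 were not listed; only the first were used, with the highest mean kept per gene, and genes under the 25th percentile were left out of counts. Each comparison is a difference of log2 values, called at 1.5-fold. With 1 array per group no test was possible. List genes named are those past 1.5-fold with the largest differences, up to 4 per list; others were named after their values were seen. Members and lists were chosen with earlier results of these data known. The script that makes the calls was checked on simulated data, which tests the computation and not the choice of threshold. Alternatives covered the fold, dim filter, centring, quantile normalization, loess, probe set choice and the mean. Computation used pandas 2.3.3, numpy 2.4.6, statsmodels 0.14.6 and matplotlib 3.10.9 under Python 3.11.15.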

Additional observations from a re-analysis of the deposited data

How the results depend on the processing

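The 27 member differences gave 81 values under centring, quantile normalization and loess; 0 changed sign among those past 1.5-fold, and 2, both Fasn in Plin5 minus Plin2, fell below it. Each member has 1 probe set, so other probe set choices could not change its values. At 1.2-fold, 5 members were higher and 2 lower in Plin2 minus empty vector, 0 higher and 1 lower in Plin5 minus empty vector, and 2 higher and 5 lower in Plin5 minus Plin2, against 19.4% and 15.5% of all genes higher and lower in the first comparison, 1.52% and 5.71% in the second and 16.6% and 22% in Plin5 minus Plin2. At 2-fold, 0 members were higher and 1 lower in Plin2 minus empty vector, against 2.5% and 1.31% of all genes. In Plin5 minus empty vector 0 were higher and 0 lower, against 0.0276% and 0.368%. In Plin5 minus Plin2, 1 was higher and 1 lower, against 1.98% and 5.17%. The mean over members was 0.069 in Plin2 minus empty vector and -0.12 in Plin5 minus Plin2, and the median in the latter was -0.17 after quantile normalization. Leaving out genes of equal value, an alternative chosen after seeing the data, gave backgrounds of 0.369% higher and 2.37% lower in Plin5 minus empty vector. Counting the probe set shared by Srebf1 and Pemt, also chosen afterwards, changed no count of members. No paired analysis was possible because each group has 1 array. The signal of single arrays limits precision, and RMA hides any change in total RNA.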

Other observations

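The probe set listed for both Srebf1 and Pemt (10743199) had log2 levels of 7.85 on the empty vector array, 7.85 on the Plin2 array and 7.72 on the Plin5 array, a difference of -0.13 for Plin5 against either. Its values cannot be assigned to either gene.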
